A study of Mus musculus with 6 samples.

Results

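The genes described here are 10 immediate early genes, namely Egr1, Egr2 and Egr3, the nuclear receptor genes Nr4a1, Nr4a2 and Nr4a3, Ier2, Ier3 and Ier5, and Rhob. They were taken by name from the 28786 Ensembl gene IDs of the deposited count table, and all 10 were present. RNA had been sequenced from 3 TMRM-high and 3 TMRM-low libraries of haematopoietic stem cells (HSCs), each made from 1500 sorted bone marrow cells of wild-type C57BL/6 mice 6 to 8 weeks old. TMRM is a dye that enters mitochondria according to their membrane potential, and the cells of both groups had been gated as Lin-, Sca-1+, c-Kit+, CD48- and CD150+. How many mice were pooled, and whether each library had mice of its own, is not said in the labels, so p-values reflect only the variation among these 6 libraries, part of which may be technical. Values are CPM, the count scaled to library size, given with the SD (n = 3 per group). A positive log2 fold change means more RNA in TMRM-high cells.

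Immediate early genes are transcribed within minutes of a stimulus, before any new protein has been made, because the factors that switch them on (SRF with its ETS partners, CREB, NF-kappa-B) are already present. The EGR proteins are zinc finger transcription factors and the NR4A proteins are nuclear receptors whose activity follows their amount rather than a hormone. In mice, Egr1 and members of the Nr4a family are known as restraints on HSC division, and the same genes also respond when a tissue is taken apart.

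The libraries held 14270069 to 22070594 estimated counts in the TMRM-high group and 15930495 to 18431567 in the TMRM-low group. The 3 TMRM-high libraries were far closer to each other than the 3 TMRM-low libraries: the biological coefficient of variation was 7.28% among TMRM-high replicates and 42.5% among the TMRM-low replicates, and the fit uses a single estimate for both. Of 18 HSC marker genes all were detected, with 1 higher, 7 lower and 10 not passing. Of all genes tested, 5.84% were higher and 5.12% lower at the same threshold. Of the genes for the gate, Cd48, whose protein was gated out, averaged 147 ± 2.82 CPM in TMRM-high libraries, against 137 ± 22.6 CPM in TMRM-low libraries. Slamf1, which encodes CD150, averaged 5.53 ± 0.569 CPM in TMRM-high libraries, against 5.13 ± 3.98 CPM in TMRM-low libraries. Per kilobase of exon the levels were 124 CPM for Cd48 and 0.899 CPM for Slamf1 in TMRM-high libraries, and 115 CPM and 0.834 CPM in TMRM-low libraries. Ly6a, which encodes Sca-1, was lower, at 30.3 ± 2.18 CPM in TMRM-high libraries, against 167 ± 7.77 CPM in TMRM-low libraries.

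The 6 most abundant of the 10 genes were all higher in TMRM-high libraries: Egr1, Nr4a1, Ier2, Ier3, Ier5 and Rhob. By edgeR's quasi-likelihood test with Benjamini-Hochberg adjustment over 13662 genes, 6 of the 9 genes tested passed in this direction, where 5.84% of all genes tested did and 9.79% of the 4024 genes averaging at least 50 CPM. With all 6 libraries no gene of the 10 was called lower by edgeR or by limma voom, where edgeR called 5.12% of all genes tested and 9.37% of those averaging at least 50 CPM; at an unadjusted p below 0.05 edgeR gave 1, Nr4a2, which DESeq2 called. The median log2 fold change was 0.63 over the 9 tested genes and -0.03 over all genes tested. In sum the 10 genes made up 0.316% to 0.328% of the counts in TMRM-high libraries, against 0.180% to 0.195% in TMRM-low libraries. In these bulk libraries, fewer cells with a transcript and less of it per cell cannot be told apart.

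**Figure D1:**
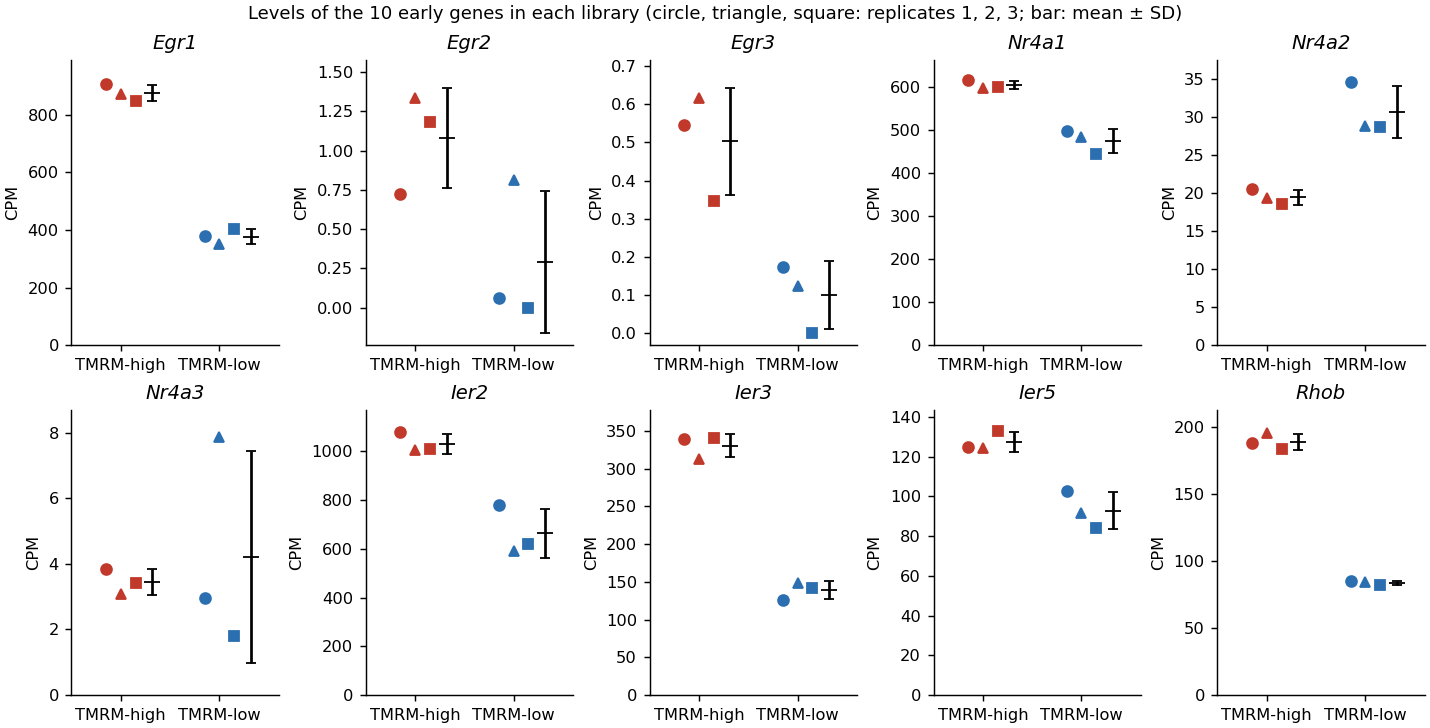
CPM of the 10 genes in each library, with an axis of its own for each gene; the symbols are replicates 1, 2 and 3, and the bar at the right of each group is the mean ± SD (n = 3). TMRM-high points lie above all TMRM-low points for Egr1, Egr3, Nr4a1, Ier2, Ier3, Ier5 and Rhob, below them for Nr4a2, and among them for Egr2 and Nr4a3.

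Egr1 (ENSMUSG00000038418, chromosome 18, 34859823 to 34864984 on GRCm38) encodes the founding member of its family and was by far the most abundant of the 3 Egr genes. It had 906, 872 and 848 CPM in the TMRM-high libraries, against 378, 350 and 403 CPM in the TMRM-low libraries. The groups lay well apart, and the log2 fold change was 1.21 (SE 0.0654, edgeR adjusted p = 5.65e-05), a 2.32-fold rise. Among 13662 genes it ranked 117th by CPM in TMRM-high and 302nd in TMRM-low libraries.

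Egr2, which in mice is best known for its roles in hindbrain patterning and myelination, was near the detection limit (chromosome 10, 67535475 to 67542188). It had 0.726, 1.33 and 1.18 CPM in TMRM-high libraries, against 0.0579, 0.811 and 0 CPM in TMRM-low libraries. One TMRM-low library, replicate 2, lay inside the TMRM-high range while the other two held 1 count and no count. The log2 fold change of 1.90 (SE 1.21) did not pass (edgeR adjusted p = 0.382), and Egr2 had entered the test through its TMRM-high counts, since only 1 TMRM-low library reached the filter's level of 0.552 CPM. Egr3, a close relative (chromosome 14, 70077203 to 70082614), was below the filter and was not tested with it. It had 0.544, 0.616 and 0.347 CPM in TMRM-high libraries, against 0.174, 0.125 and 0 CPM in TMRM-low libraries, which rest on 29 counts in all and 5 counts in all. The groups did not overlap, as was so in this direction for 18.4% of all genes tested. The ratio of summed counts, scaled for library size, was 5.36 with a 95% exact binomial interval of 2.05 to 17.7 that covers counting error only. Fitted with no filter, Egr3 did not pass (log2 fold change 2.28, SE 1.33, edgeR adjusted p = 0.389), nor did it in the 3 fits without 1 library in which it met the filter (adjusted p = 0.137 to 0.39). Egr4, outside the 10 genes, averaged 0.365 ± 0.183 CPM in TMRM-high libraries, against 0.229 ± 0.307 CPM in TMRM-low libraries and was not tested either.

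The promoters of Egr1, Egr3 and Ier2 were not searched, so nothing is said here about their motifs. For the other 7 of the 10 genes, RefSeq windows from 250 bases before to 50 bases after a transcript start on GRCm38.p6 were used. They were searched on both strands for the SRF binding motif (the CArG box), the cAMP response element (CRE, TGACGTCA) and its core TGACG, a CRE counting as a core too, for the NF-kappa-B site, for the EGR sites GCGTGGGCG and GCGGGGGCG, for the NR4A monomer site (NBRE, AAAGGTCA) and for TATAAA. Of 32851 windows of the same length, 1.63% held a CArG box, 1.79% a CRE, 20.8% a CRE core, 8.46% an NF-kappa-B site, 0.612% and 2.91% the EGR sites, 1.51% an NBRE and 13.6% a TATAAA. A match describes the letters of a window and is not evidence of binding. Of the 5 Egr2 windows, 4 held a CArG box, and in 3 of them, which overlap, it stood between 2 CRE cores. The remaining window, not shown, held the NF-kappa-B site at 2 overlapping places, 117 and 116 bases before its start. The window shown, 1 of the 3 with CRE cores, carries the CArG box and both cores. It lies at chr10:67537619-67537918 on the plus strand, with the CArG box and CRE cores in capitals.
Egr2: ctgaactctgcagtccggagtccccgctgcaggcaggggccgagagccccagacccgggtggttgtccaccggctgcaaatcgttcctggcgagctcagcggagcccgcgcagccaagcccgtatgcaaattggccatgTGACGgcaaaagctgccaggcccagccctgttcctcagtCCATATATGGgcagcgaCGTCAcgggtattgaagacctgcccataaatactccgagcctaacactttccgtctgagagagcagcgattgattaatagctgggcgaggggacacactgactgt

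The Nr4a genes did not move together. Nr4a1, which encodes NUR77 (ENSMUSG00000023034, chromosome 15, 101254269 to 101274795), had 617, 598 and 602 CPM in TMRM-high libraries, against 498, 484 and 445 CPM in TMRM-low libraries. The groups did not overlap and the rise was small, with a log2 fold change of 0.35 (SE 0.0591, edgeR adjusted p = 0.00988). Its call was lost without any 1 TMRM-high library, at adjusted p-values of 0.0577 to 0.0648, and with the TMRM-high libraries summed into 1 (0.549), while its log2 fold change stayed between 0.34 and 0.38 in these settings.

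Nr4a2, which encodes NURR1 (ENSMUSG00000026826, chromosome 2, 57106830 to 57124003), showed the opposite order at a far lower level. It had 20.5, 19.3 and 18.5 CPM in TMRM-high libraries, against 34.5, 28.8 and 28.6 CPM in TMRM-low libraries. All 3 TMRM-high libraries lay below all 3 TMRM-low libraries, as was so for 17.0% of all genes tested. The log2 fold change of -0.65 (SE 0.186) missed the threshold in edgeR (adjusted p = 0.0644) and passed it in DESeq2 (adjusted p = 0.00406), over a range of 0.00406 to 1 in all alternatives. Nr4a3, which encodes NOR1 (chromosome 4, 48045153 to 48086447), had 3.86, 3.08 and 3.40 CPM in TMRM-high libraries, against 2.95, 7.86 and 1.80 CPM in TMRM-low libraries. TMRM-low replicate 2 alone was above the TMRM-high range, and no difference passed (log2 fold change -0.28, SE 0.616, edgeR adjusted p = 0.823). Without that library the log2 fold change was 0.54 and did not pass either.

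The ratio of Nr4a1 to Nr4a2 within a library needs no library size. There were 30.1, 30.9 and 32.5 counts of Nr4a1 for each count of Nr4a2 in TMRM-high libraries, against 14.4, 16.8 and 15.6 in TMRM-low libraries. The mean ratio of the TMRM-high libraries was 2.00 times that of the TMRM-low libraries, and the groups did not overlap. With 3 libraries against 3 an exact two-sided permutation test cannot give a p below 0.1, so no test is given for this or the ratios that follow. In the deposited table some or all counts of Nr4a2 and Nr4a3 were not whole numbers, as happens where reads are assigned in part to other transcripts, while those of the other 8 genes were whole.

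The windows of the 3 Nr4a genes are shown because each held 4 CRE cores, as did 0.231% of all windows (at least 4). None of them held a whole CRE or an NBRE. The cores are in capitals, as is an NF-kappa-B site that spans the start of Nr4a1. The Nr4a1 window also held the EGR site GCGGGGGCG on its minus strand, and the Nr4a2 window TATAAA on its minus strand. They lie at chr15:101266596-101266895 on the plus strand (Nr4a1), chr2:57123954-57124253 on the minus strand (Nr4a2) and chr4:48045055-48045354 on the plus strand (Nr4a3), and each is written in the direction of its gene.
Nr4a1: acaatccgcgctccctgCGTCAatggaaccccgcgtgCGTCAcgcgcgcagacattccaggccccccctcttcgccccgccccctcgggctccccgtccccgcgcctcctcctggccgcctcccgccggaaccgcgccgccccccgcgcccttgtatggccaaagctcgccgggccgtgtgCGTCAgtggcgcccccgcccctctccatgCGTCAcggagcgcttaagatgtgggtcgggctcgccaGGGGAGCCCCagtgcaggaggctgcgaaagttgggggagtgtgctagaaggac
Nr4a2: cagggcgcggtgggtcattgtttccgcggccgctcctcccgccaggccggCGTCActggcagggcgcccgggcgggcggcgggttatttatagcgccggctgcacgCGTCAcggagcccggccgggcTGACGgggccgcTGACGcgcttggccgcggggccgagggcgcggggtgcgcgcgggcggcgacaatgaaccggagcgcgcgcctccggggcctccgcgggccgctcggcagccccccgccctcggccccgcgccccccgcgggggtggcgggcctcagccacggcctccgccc
Nr4a3: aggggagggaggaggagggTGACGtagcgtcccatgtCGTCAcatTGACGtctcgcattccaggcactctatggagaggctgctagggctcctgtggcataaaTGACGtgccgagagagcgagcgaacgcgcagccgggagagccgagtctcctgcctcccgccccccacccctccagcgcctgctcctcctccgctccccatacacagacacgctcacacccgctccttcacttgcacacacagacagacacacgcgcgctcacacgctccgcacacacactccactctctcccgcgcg

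**Figure D2:**
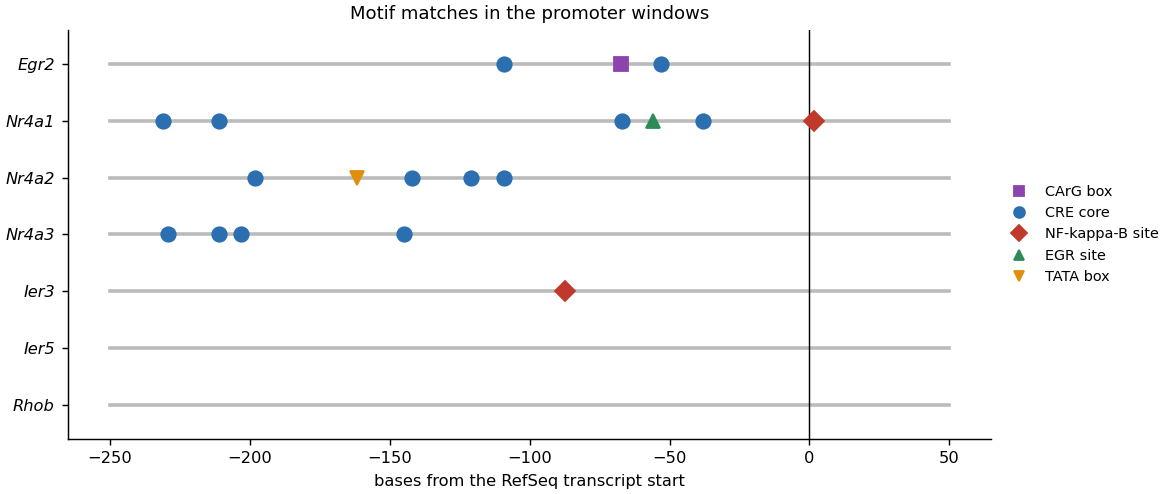
Places of motif matches along the promoter windows of 7 genes, in bases from the RefSeq transcript start at 0; squares are CArG boxes, circles CRE cores, diamonds NF-kappa-B sites, upward triangles EGR sites and downward triangles TATAAA. Each Nr4a gene has 4 CRE cores, the Egr2 window shown has 2 beside its CArG box, Ier3 has 1 NF-kappa-B site, and Ier5 and Rhob have no match.

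The Ier genes all rose. Ier2, a nuclear protein gene of the growth factor response (ENSMUSG00000053560, chromosome 8, 84661331 to 84662852), had the highest CPM of the 10 genes. It had 1079, 1004 and 1009 CPM in TMRM-high libraries, against 779, 593 and 620 CPM in TMRM-low libraries. The groups did not overlap, although TMRM-low replicate 1 stood above the other two, and the log2 fold change was 0.63 (SE 0.102, edgeR adjusted p = 0.00843). The call was lost without TMRM-high replicate 1 (adjusted p = 0.0507) and with the TMRM-high libraries summed (0.216), where the log2 fold changes were 0.60 and 0.67.

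Ier3, a stress-induced regulator of cell survival and a known NF-kappa-B target (ENSMUSG00000003541, chromosome 17, 35821684 to 35822923), rose by about as much as Egr1. It had 339, 313 and 340 CPM in TMRM-high libraries, against 126, 148 and 142 CPM in TMRM-low libraries. These groups were far apart, with a log2 fold change of 1.25 (SE 0.0836, edgeR adjusted p = 0.000131), a 2.38-fold rise. Its promoter window, at chr17:35821463-35821762 on the plus strand, is shown for the NF-kappa-B site 92 bases before the start, in capitals.
Ier3: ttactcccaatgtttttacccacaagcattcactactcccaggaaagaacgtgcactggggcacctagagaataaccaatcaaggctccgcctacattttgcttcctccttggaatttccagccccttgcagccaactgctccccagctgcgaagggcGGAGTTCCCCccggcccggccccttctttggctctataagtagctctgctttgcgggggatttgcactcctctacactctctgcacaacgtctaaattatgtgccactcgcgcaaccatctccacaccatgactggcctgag

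Ier5, which works with the phosphatase PP2A on the heat shock factor HSF1 (ENSMUSG00000056708, chromosome 1, 155096361 to 155099636), changed least among the Ier genes. It had 125, 124 and 133 CPM in TMRM-high libraries, against 103, 91.7 and 83.9 CPM in TMRM-low libraries. The groups did not overlap and the log2 fold change was 0.46 (SE 0.103, edgeR adjusted p = 0.0298). The call was lost without any 1 TMRM-high library, at adjusted p-values of 0.126 to 0.163, and with these libraries summed (0.954). There were 2.72, 2.52 and 2.56 counts of Ier3 for each count of Ier5 in TMRM-high libraries, against 1.23, 1.62 and 1.70 in TMRM-low libraries.

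Rhob, which unlike its relatives Rhoa and Rhoc encodes an inducible, short-lived small GTPase (ENSMUSG00000054364, chromosome 12, 8497661 to 8500009), had 188, 195 and 184 CPM in TMRM-high libraries, against 84.9, 84.4 and 82.1 CPM in TMRM-low libraries. The values within each group lay within a few per cent of each other, and the coefficient of variation of 1.76% in TMRM-low libraries was below the 2.63% that counting alone gives. Rhob rose 2.26-fold (log2 fold change 1.17, SE 0.0765, edgeR adjusted p = 0.000109). Rhoa averaged 383 ± 13.2 CPM in TMRM-high libraries, against 400 ± 14.4 CPM in TMRM-low libraries and did not pass (log2 fold change -0.06, SE 0.0590, edgeR adjusted p = 0.590). There were 0.507, 0.492 and 0.482 counts of Rhob for each count of Rhoa in TMRM-high libraries, against 0.220, 0.212 and 0.198 in TMRM-low libraries.

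Set against gene length, as mean CPM per kilobase of merged exons, Ier2 led in both groups, at 677 in TMRM-high libraries, against 436 in TMRM-low libraries. In TMRM-high libraries Ier3 (293), Egr1 (195), Nr4a1 (173), Rhob (80.5) and Ier5 (38.9) followed, and then Nr4a2 (4.79), Nr4a3 (0.575), Egr2 (0.318) and Egr3 (0.114), and the ranges of neighbours in this order did not overlap. In TMRM-low libraries Nr4a1 came second at 136, with a range of 127 to 142 that overlapped the 112 to 131 of Ier3, and Egr1 came after both at 84.1. The order of Egr1 and Nr4a1 was thus turned round between the groups, with 1.47, 1.46 and 1.41 counts of Egr1 for each count of Nr4a1 in TMRM-high libraries, against 0.759, 0.724 and 0.905 in TMRM-low libraries. Among the rare genes in TMRM-low libraries, Egr2 at 0 to 0.239 CPM per kilobase overlapped Egr3 at 0 to 0.0394.

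The other immediate early genes moved mostly in the direction of Egr1, Ier3 and Rhob. Of 10 genes listed as AP-1, 8 were higher and 2 did not pass, with a median log2 fold change of 0.80. Their FOS, JUN, ATF and small MAF products pair to bind DNA. Of all genes tested, 5.84% were called higher. Fosb averaged 184 CPM in TMRM-high libraries, against 19.1 to 37.8 CPM in TMRM-low libraries (log2 fold change 2.59, SE 0.238). Atf3 averaged 45.3 ± 3.26 and 8.47 ± 2.19 CPM (2.42, SE 0.240), Jun 1527 ± 76.2 and 828 ± 47.9 CPM (0.88, SE 0.0612) and Mafk 90.5 ± 3.00 and 50.8 ± 3.16 CPM (0.83, SE 0.110). Of 26 other immediate early genes tested, 17 rose, 1 fell and 8 did not pass, with a median of 0.89. Dusp2, a phosphatase gene that limits MAP kinases (log2 fold change 1.32, SE 0.0653), Zfp36, which encodes an mRNA decay factor (0.97, SE 0.0529), the antiproliferative gene Btg2 (1.36, SE 0.0786) and Nfkbia, whose product holds back NF-kappa-B (3.03-fold higher), were among those that rose. The 1 that fell was Myc, which encodes a driver of growth and division, at 239 ± 4.43 CPM in TMRM-high libraries, against 354 ± 24.7 CPM in TMRM-low libraries (-0.57, SE 0.0697). Without any 1 TMRM-high library 5 AP-1 genes were called higher. Of the 26 others, 12 or 13 were higher and 1 lower in these fits. Of all 14041 to 14140 genes tested in them, 250 to 269 were called higher. With the TMRM-high libraries summed, fewer genes of both lists and of all genes were called.

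**Figure D3:**
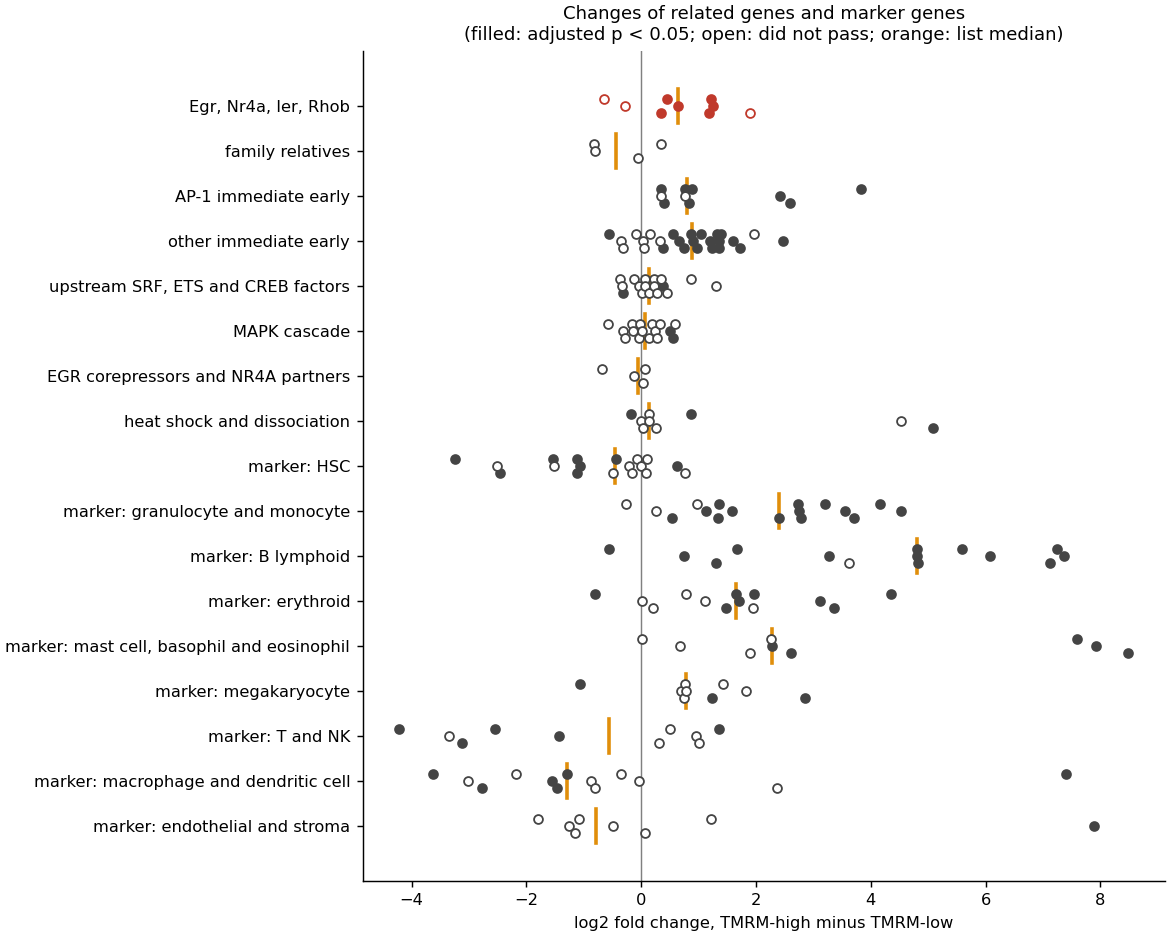
Log2 fold changes (TMRM-high minus TMRM-low) of the tested genes of each list shown, filled where edgeR's adjusted p was below 0.05 and open where it was not; orange bars are list medians, and the 9 tested genes described here are in red at the top. The AP-1 and other immediate early lists lie mostly right of 0, with medians of 0.80 and 0.89, the upstream factors and MAP kinases lie around 0, and the marker lists with the highest medians are those of B lymphoid (4.80), granulocytic and monocytic (2.40) and mast, basophil and eosinophil genes (2.28).

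The genes that act above and beside the 10 are read against the 5.84% of all genes tested that were called higher and the 5.12% called lower. Of 17 SRF, ETS, CREB and MEF2 factor genes, 15 did not pass, Mef2d was higher (0.38, SE 0.0927) and Mef2c lower (-0.31, SE 0.0778), and the list's median was 0.14. Srf itself averaged 38.5 ± 1.43 CPM in TMRM-high libraries, against 34.9 ± 10.9 CPM in TMRM-low libraries and did not pass. In the MAP kinase cascade, which carries the signal to these factors, Mapk3 was higher (0.55, SE 0.113) and 14 genes did not pass. The calls of Mef2d, Mef2c and Mapk3 were lost without any 1 TMRM-high library. Of 4 tested EGR corepressor and NR4A partner genes none was called by edgeR, by DESeq2, by limma voom or at an unadjusted p below 0.05; the NR4A partner gene Rxrb averaged 77.2 ± 3.58 CPM in TMRM-high libraries, against 73.6 ± 7.97 CPM in TMRM-low libraries and Rxra 3.32 ± 0.231 and 5.33 ± 3.60 CPM. Of 4 tested genes related to the 10 by family, or only by name (Ier3ip1), the reported edgeR fit called none. Ier3ip1 was called higher by DESeq2, by RLE or total-count scaling and without TMRM-low replicate 2. Its unadjusted p in the reported edgeR fit was below 0.05. Ier3ip1 averaged 136 ± 3.99 CPM in TMRM-high libraries, against 108 ± 8.07 CPM in TMRM-low libraries (0.34, SE 0.0898, edgeR adjusted p = 0.0511), and Ier5l 1.03 ± 0.374 and 1.79 ± 0.396 CPM.

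Of 9 tested heat shock and dissociation genes, 8 had a positive log2 fold change, but 2 were called higher and 1 lower. The other 6 did not pass, and the list's median was 0.14. Of all 13662 genes tested, 6448 had a positive log2 fold change, 5.84% were called higher and 5.12% lower. The chaperone genes Dnajb1 (240 ± 3.50 CPM in TMRM-high libraries, against 131 ± 7.36 CPM in TMRM-low libraries, 0.87, SE 0.0738) and Hspa1a (18.0 ± 1.54 and 0.533 ± 0.728 CPM, 5.09, SE 0.897) rose, and Hsp90ab1 fell (-0.18, SE 0.0396). The calls of Hspa1a and Hsp90ab1 were lost without any 1 TMRM-high library. Hspa1a has a close copy, Hspa1b, between which reads can be split, so its value is uncertain.

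Markers of other blood cells differed between the same libraries. The counts of called genes below stand beside 5.84% of all genes tested called higher and 5.12% called lower. Of 17 tested granulocyte and monocyte genes 14 were higher, and the list's summed level was 16296 to 16694 CPM in TMRM-high libraries, against 4164 to 4469 CPM in TMRM-low libraries, with Mpo and Elane the most abundant of those called. Of 14 B lymphoid genes 12 were higher and 1 lower, with sums of 2388 to 2430 and 951 to 1053 CPM. Of 9 mast cell, basophil and eosinophil genes 5 were higher, with sums of 309 to 324 and 56.4 to 70.5 CPM. Of 9 tested megakaryocyte genes 2 were higher and 1 lower, with sums of 449 to 462 and 228 to 257 CPM, and of 13 tested erythroid genes 7 were higher and 1 lower, with sums of 651 to 676 and 643 to 780 CPM. Without the lower one, Car2, the erythroid sums were 336 to 367 and 122 to 165 CPM. Without 1 TMRM-high library 2 or 3 erythroid genes were called higher, where 250 to 269 of all 14041 to 14140 genes tested were. Of 10 tested T and NK genes 1, Nkg7, was higher and 4 lower, with sums of 637 to 648 and 358 to 458 CPM; without Nkg7 the sums were 82.9 to 88.3 and 166 to 220 CPM, the other way round. These sums without the most abundant gene of a list were added after seeing the data. Of 13 macrophage and dendritic cell genes 1 was higher and 5 lower, with sums of 375 to 378 and 703 to 756 CPM. The endothelial and stromal list, with 1 of 8 higher, summed to 105 to 106 and 103 to 116 CPM. Of these markers Col3a1 was at 0 in all TMRM-high libraries, and Ms4a1, Epx and Plvap were at 0 in all TMRM-low libraries. The share of mitochondrially encoded RNA was 6.35% to 6.94% in TMRM-high libraries, against 5.25% to 6.14% in TMRM-low libraries. The part of these differences in the early gene values was not tested.

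The profile of the genes over the 6 libraries was compared with that of 3930 other genes averaging at least 50 CPM, leaving out those with no symbol or that of a predicted model (Gm and Rik names), by the Euclidean distance of centred log2 CPM to the mean over the 9 tested genes. The nearest were Slc1a5, a glutamine transporter gene (distance 0.109), Rbm33 (0.112), the small GTPase gene Rap1a (0.153), Arsb (0.165) and Rapgef6 (0.175). That mean gives Egr2 and Nr4a3, with few counts, the same weight as the abundant genes. With the profile taken over the 6 genes that average at least 50 CPM, an alternative chosen after seeing the data, the nearest were Klf10 (0.114), Jun (0.124), Mafk (0.136), Mafg (0.141) and Dnajb1 (0.171), and 0 of the first 5 were among them. The distances describe these 6 libraries, 3 of which share each label.

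**Figure D4:**
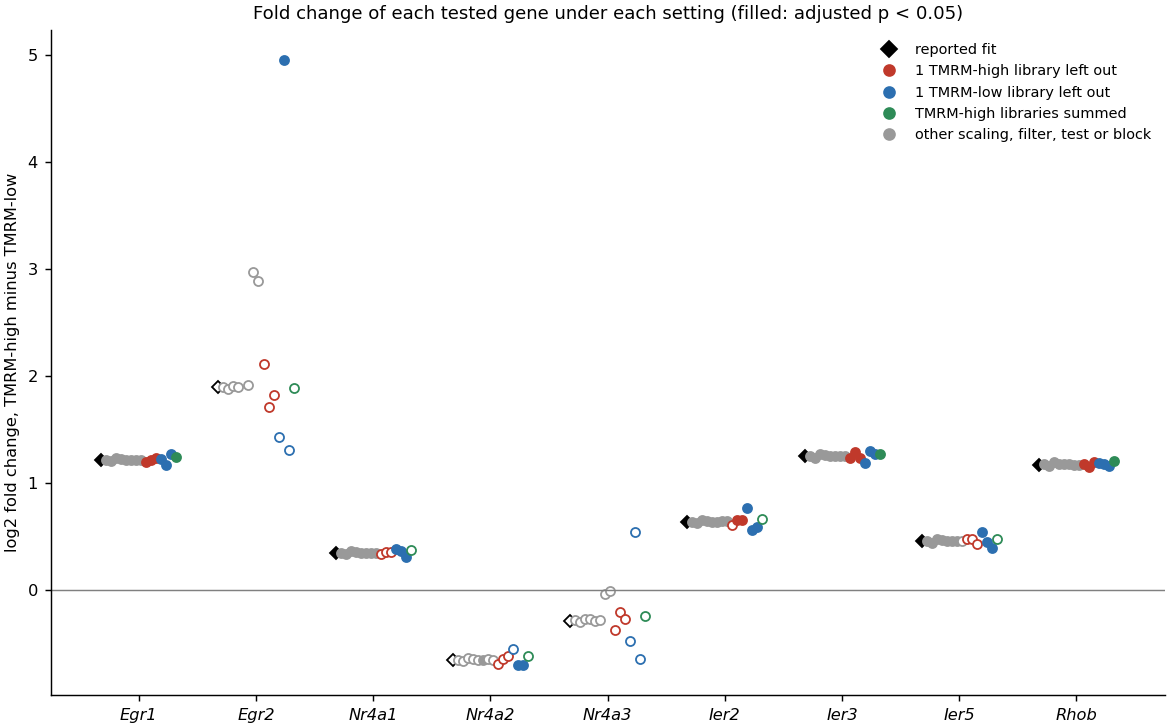
Log2 fold change (TMRM-high minus TMRM-low) of each of the 9 tested genes under every setting tried, filled where the adjusted p was below 0.05; black diamonds are the reported values, red and blue circles leave out 1 TMRM-high or TMRM-low library, green circles sum the TMRM-high libraries and grey circles stand for other scaling, filter, test or block. Egr1, Ier3 and Rhob stay filled throughout, Nr4a1, Ier2 and Ier5 turn open in some settings at nearly the same height, and Egr2 and Nr4a3 move most when TMRM-low replicate 2 is left out.

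Egr1, Ier3 and Rhob kept their calls in all 15 alternatives, with log2 fold changes of 1.17 to 1.27 for Egr1, 1.19 to 1.30 for Ier3 and 1.15 to 1.21 for Rhob. Nr4a1, Ier2 and Ier5 stayed higher in all 15, and were called in 11, 13 and 10 of them. Without TMRM-high replicate 1, 3 of the 9 genes tested were called, where 453 of all 14041 genes tested were. With the TMRM-high libraries summed, the spread can come only from TMRM-low replicates. There the log2 fold changes were 1.25 for Egr1, 1.28 for Ier3 and 1.21 for Rhob. Those of Nr4a1, Ier2 and Ier5 were 0.38, 0.67 and 0.48. Without TMRM-low replicate 2, Egr2 was called higher (log2 fold change 4.95, adjusted p = 0.0308), against 2 TMRM-low libraries that hold 1 count between them. Nr4a2 was called lower by edgeR without TMRM-low replicate 2 (-0.70, adjusted p = 0.042) and without TMRM-low replicate 3 (-0.70, adjusted p = 0.0372).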

How the data were processed

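Bone marrow HSC libraries (3 TMRM-high, 3 TMRM-low) were made by a low-input full-length method with 13 PCR cycles and paired reads of 150 bases, per the labels' protocols. The method marks no strand and has no molecular identifiers. Trim Galore 0.5.0, Salmon (listed as 0.03.1) and GRCm38 were used, per the submitters' processing notes. The annotation used for counting is not stated in these sources. Estimated counts for each gene, 27% of them not whole, are what the authors deposited, and they were rounded here. Positions and exon lengths came from GENCODE M21 (GRCm38) for 27797 of 28786 IDs, and promoter windows from RefSeq on GRCm38.p6. Symbols came from a separate list of gene names, or from GENCODE M21 for IDs missing from that list. Genes were filtered with filterByExpr, scaled by TMM and tested with edgeR 4.0.16 (glmQLFit robust, glmQLFTest, group as the single term) in R 4.3.3, at a Benjamini-Hochberg adjusted p below 0.05. CPM use the TMM-scaled library sizes of that fit. The SE is the size of the log2 fold change divided by the square root of F. The fit was tested on simulated data.

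The 10 genes, the lists and the tests were chosen with earlier results of these data known. Named genes follow a rule: all 10, up to 4 called members of each related list by smallest p (or up to 2 not passing), the 5 nearest profiles, and the 2 most abundant called genes of a marker list. Srf, Rhoa, Egr4, Myc and the gate genes were added after their values were seen, and some genes that the rule permits, and 1 related list, are not reported here. Alternatives covered scaling (RLE, upper quartile, library totals), 2 other filters, DESeq2 1.42.0, limma 3.58.1 voom, a replicate block, each library left out and the TMRM-high libraries summed.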

Additional observations from a re-analysis of the deposited data

How the results depend on the processing

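Of the 10 genes, 6 were called in the reported fit, 7 with DESeq2, 6 with limma voom, 6 under each other scaling or filter and 3 with the TMRM-high libraries summed. With 1 library left out the number ran from 3 to 8. Over all genes, 1498 were called in the reported fit, 2661 with DESeq2, 114 with the TMRM-high libraries summed and 431 to 2572 with 1 library left out; the lowest counts came without a TMRM-high library and the highest without a TMRM-low library. No called log2 fold change of a named gene changed sign. Scaling moved the median log2 fold change of all genes by at most 0.02. Same-numbered libraries of the groups did not deviate together (correlations of 0.03, -0.06 and -0.02 over 5623 genes). With the replicate block 5 of the genes and 1031 of all genes were called; Ier5 lost its call (adjusted p = 0.0663, over a range of 0.000783 to 0.954 in its alternatives). The cause of these changes was not tested. Depth limits Egr3, with 0 to 12 counts per library. For Egr2 and Nr4a3, the TMRM-low libraries differed by more than counting gives (chi-square per degree of freedom 12.6 and 42.7). This was not particular to them, as the values of the 10 genes ran from 0.463 for Rhob to 260 for Ier2. Over all genes with at least 20 counts, pairs of TMRM-low libraries gave 46.0 to 51.4.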

Other observations

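The spread between libraries of a group was not the same for all 10 genes. For Ier2 the coefficient of variation was 4.07% in TMRM-high libraries, where counting alone gives 0.720%, and 15.1% in TMRM-low libraries, where counting alone gives 0.934%. For Nr4a3 it was 11.3% in TMRM-high libraries, where counting alone gives 12.4%, and 76.6% in TMRM-low libraries, where counting alone gives 12.0%. TMRM-low replicate 2 held the most Nr4a3 and Egr2 of the 3 TMRM-low libraries and the least Egr1 and Ier2. Egr3 had 3, 2 and 0 counts in TMRM-low replicates 1, 2 and 3.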
